A study of Rattus norvegicus with 12 samples.

Results

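The folate one-carbon enzymes Shmt2, Mthfd2, Mthfd2l, Mthfd1l and Aldh1l2 of the mitochondrion and Shmt1, Mthfd1 and Aldh1l1 of the cytosol were examined in rat liver. They were chosen as the 8 genes of the pathway's parallel mitochondrial and cytosolic branches, and their probes were found through the RefSeq accession that the array files give each probe. Of the 8 genes, 7 had a probe, with 8 probes in all among the 45598 probes that were not controls, and 6 passed the brightness filter among 21871 genes tested. The livers came from adult male Wistar rats, 6 fed a low protein diet of 5% casein and 6 fed a control diet of 14% casein with the same energy content, and RNA was taken after 4 weeks. Each liver was hybridised to a single-colour Agilent array of its own.

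Folate coenzymes carry single carbon units that cells use to make purines, thymidylate and methionine. Much of this carbon comes from serine, which serine hydroxymethyltransferase cleaves to glycine, either in the mitochondrion (Shmt2) or in the cytosol (Shmt1). In the mitochondrion Mthfd2 or its relative Mthfd2l oxidises the carbon unit to the formyl level, Mthfd1l releases it as formate, and in the cytosol the multi-activity enzyme Mthfd1 takes formate up again or oxidises folate-bound carbon itself. Aldh1l2 in the mitochondrion and Aldh1l1 in the cytosol burn surplus formyl groups to carbon dioxide, and Aldh1l1 is an abundant liver protein. Mthfd2 is known for high levels in embryonic and dividing cells and low levels in most adult tissues.

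The promoter windows of the mitochondrial genes Mthfd2 and Mthfd1l, the members that moved most, and of the cytosolic Aldh1l1, which did not pass the test, are shown for comparison. Each runs from 250 bases before to 50 bases after the gene start in RefSeq's annotation of GRCr8, and capitals mark CCAAT or TGACG on either strand (read as ATTGG or CGTCA on the other). The windows lie at chr4:117380301-117380600 on the minus strand for Mthfd2, chr1:42849174-42849473 on the plus strand for Mthfd1l and chr4:124616970-124617269 on the plus strand for Aldh1l1.
Mthfd2: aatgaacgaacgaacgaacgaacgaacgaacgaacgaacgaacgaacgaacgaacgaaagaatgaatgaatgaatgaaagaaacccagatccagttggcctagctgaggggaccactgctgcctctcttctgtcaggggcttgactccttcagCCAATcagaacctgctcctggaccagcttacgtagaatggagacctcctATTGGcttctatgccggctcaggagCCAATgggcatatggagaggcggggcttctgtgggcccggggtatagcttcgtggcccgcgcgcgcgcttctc
Mthfd1l: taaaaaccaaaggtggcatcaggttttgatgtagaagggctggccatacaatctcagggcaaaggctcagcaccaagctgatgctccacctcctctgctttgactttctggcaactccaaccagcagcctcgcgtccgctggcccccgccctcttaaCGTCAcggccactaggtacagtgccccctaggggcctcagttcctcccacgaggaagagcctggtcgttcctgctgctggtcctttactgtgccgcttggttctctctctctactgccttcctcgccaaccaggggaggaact
Aldh1l1: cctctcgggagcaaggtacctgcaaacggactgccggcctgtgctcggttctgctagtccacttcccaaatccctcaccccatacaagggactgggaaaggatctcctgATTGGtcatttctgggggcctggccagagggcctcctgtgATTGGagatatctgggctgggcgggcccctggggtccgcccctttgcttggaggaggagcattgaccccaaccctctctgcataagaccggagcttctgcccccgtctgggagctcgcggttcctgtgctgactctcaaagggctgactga
The Mthfd2 window held 3 CCAAT matches, starting at positions -97, -48 and -23 from the gene start, and the Aldh1l1 window held 2, at -141 and -101. The Mthfd1l window held no CCAAT and 1 TGACG match, at -93. CCAAT occurred in 37.5% and TGACG in 21.2% of 33469 rat promoter windows of this length, so such matches are common. The 8-letter sequence TGATGNAA, the core of the amino acid response element that ATF4 family factors bind, was searched on both strands in the 6 members with a window in the table (Shmt2, Mthfd2, Mthfd2l, Mthfd1l, Shmt1 and Aldh1l1). It was found in 0 of these 6 and in 0 of 21 other folate pathway genes, against 3.98% of all windows, which says only that these letters are not in these windows.

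The arrays lay on 2 slides, with 4 low protein and 4 control rats on slide 1 and 2 of each on slide 2, and 61.2% to 69.9% of spots were well above background. Levels below are on a log2 scale, each array's processed signals being set relative to that array's 75th percentile, and changes are low protein minus control on that scale. A gene is called changed at an adjusted p under 0.05 in limma over all genes. By this rule 6.53% of genes changed and 3.48% were higher in low protein livers, with a median change over all genes of -0.03. All 7 hepatocyte markers (Alb, Ttr and others) were measured, and their summed linear level was 490 to 647 in low protein and 579 to 682 in control livers, relative to the 75th percentile. In whole liver, fewer cells of a type and less RNA per cell cannot be told apart.

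Transcripts of the mitochondrial enzyme Mthfd2 were many times higher in low protein livers. Those of Mthfd1l were also higher, by an amount that depended on how background was treated. The enzymes that flank them moved little. Mthfd2 rose 14.0-fold. On the log2 scale Mthfd1l rose by 2.07 in the fit and by 0.64 in the deposited values, where background is not subtracted. After normexp background correction it rose by 0.26 and was not called. Shmt2, which feeds carbon into this route, rose 1.40-fold, and Mthfd1, the cytosolic counterpart, rose 1.30-fold. Aldh1l2 and Aldh1l1, which remove formyl groups, did not pass the test, and Mthfd2l was too dim to test. Of the 8 members 4 were thus called higher, 2 did not pass, 1 failed the filter and 1 (Shmt1) had no matched probe. The Mthfd1l probe entered the test only through the low protein group, with no control array well above background. The calls of Shmt2 and Mthfd1 were lost in 8 and 10 of the 12 runs with 1 rat left out. Since the members were chosen with earlier results of these arrays known, the count of 4 is not independent evidence beside the 3.48% of all genes.

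**Figure D1:**
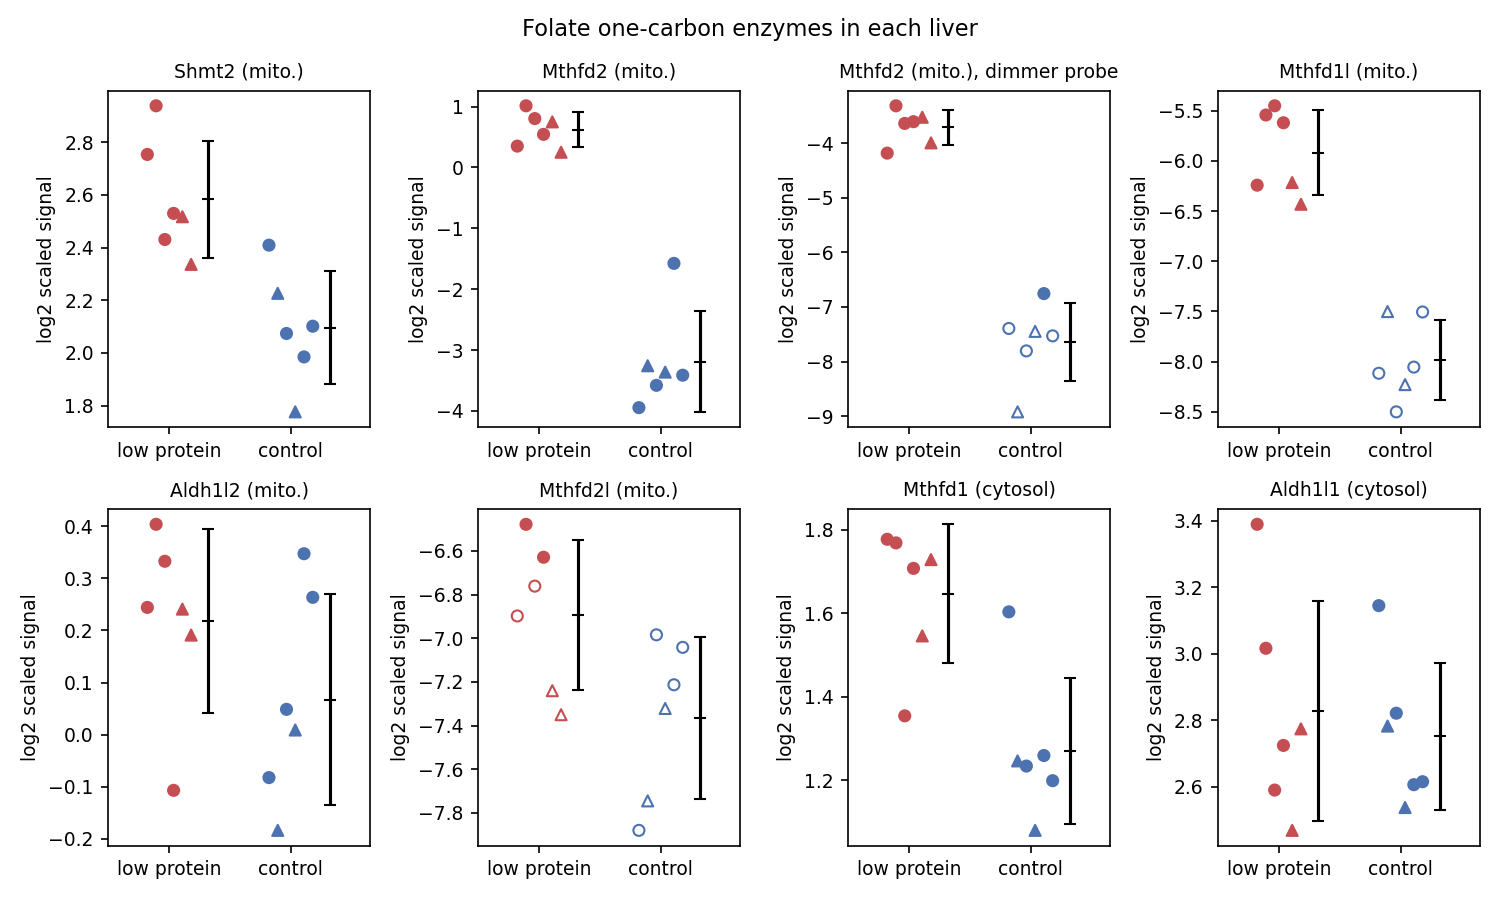
Log2 scaled signal (y axes, a scale of its own per panel) of each member probe in the livers of 6 low protein and 6 control rats. Circles are slide 1, triangles slide 2, filled symbols are well above background, and bars show mean and SD. Both probes of Mthfd2 and that of Mthfd1l separate the diets, and the other panels overlap.

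Among the enzymes that release carbon from serine, Shmt2 had log2 levels of 2.75, 2.94, 2.43, 2.53, 2.52 and 2.34 in low protein rats 1 to 6, against 2.41, 2.23, 2.07, 1.78, 1.99 and 2.10 in control rats 1 to 6. Control rat 1 lay above low protein rat 6, so the groups overlapped by these animals. The change was 0.49 ± 0.12 (SE, n = 6 rats per diet), with a 95% interval of 0.22 to 0.76 and an adjusted p of 0.0344. This call was near the threshold: it was lost without any of control rats 3, 4, 5 and 6 or low protein rats 1, 2, 4 and 5, with adjusted p of 0.0513 to 0.0747. The change was 0.52 on slide 1 and 0.43 on slide 2. Shmt1, its cytosolic form, was not analysed here.

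Mthfd2, the dehydrogenase and cyclohydrolase of the mitochondrial branch, had log2 levels of 0.35, 1.01, 0.80, 0.54, 0.75 and 0.25 in low protein rats, against -3.95, -3.26, -3.58, -3.36, -1.58 and -3.41 in control rats. Every low protein liver was above every control liver, and control rat 5 stood apart from the other control rats. Such separation of the diets, in either direction, was seen in 4.98% of all genes. The diet means were 0.62 ± 0.29 in low protein and -3.19 ± 0.83 in control rats (SD, n = 6 each), so the controls were the more variable group. With a change of 3.81 ± 0.32 (SE, 95% interval 3.11 to 4.51, adjusted p = 5.54e-05), Mthfd2 ranked 12 among all genes tested by the size of the rise. It was 3.81 on each slide taken alone.

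A second, dimmer Mthfd2 probe gave log2 levels of -4.18, -3.32, -3.64, -3.61, -3.53 and -4.00 in low protein livers, against -7.39, -8.92, -7.81, -7.45, -6.76 and -7.53 in control livers. It was well above background on all 6 low protein arrays but on only 1 control array, that of rat 5, which was again the highest control. The change was 3.93 ± 0.29 (SE, adjusted p = 1.07e-05 over 25701 probes, of which 6.69% changed) on the measured values. Since 5 of 6 control arrays were not well above background, this probe entered the test only through the low protein group. Its adjusted p is therefore not taken as support for the brighter probe, and the size of this change is uncertain. With background not subtracted, in the deposited values, the dimmer probe's change was 1.75 and the brighter probe's 3.50.

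Mthfd2l, the relative of Mthfd2, was well above background on 2 low protein and 0 control arrays and failed the filter. Its low protein levels ran from -7.35 to -6.48 and its control levels from -7.88 to -6.98, so the groups overlapped. Without the filter the change was 0.47 ± 0.20 (SE) with an adjusted p of 0.325. At this brightness a difference was not detectable, and Mthfd2 could not be compared with Mthfd2l.

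Mthfd1l, which splits formyl-folate to formate, had log2 levels of -6.24, -5.54, -5.45, -5.62, -6.22 and -6.43 in low protein livers, against -8.12, -7.50, -8.50, -8.23, -8.05 and -7.51 in control livers. All low protein values lay above all control values, but the probe was well above background on 6 low protein and 0 control arrays, so it entered the test only through the low protein group. Measured means were -5.92 in low protein and -7.98 in control livers, and the fit gave 2.07 ± 0.22 (SE, adjusted p = 0.000269). Because of how the probe entered the test, this adjusted p is not taken as support. With the controls this dim, the size of the rise is uncertain. Control signals below their array's lowest signal well above background were then raised to it. The rise was then 3.84-fold (1.94 on the log2 scale). That is not a lower limit. In control rat 2 the probe read -7.50, above that array's lowest such signal of -7.90, yet it was not well above background. The change was 2.33 on slide 1 and 1.54 on slide 2. After normexp background correction, whose offset compresses dim signals, it was 0.26 with an adjusted p of 0.122, and the call was lost. In the deposited values, where background is not subtracted, it was 0.64 with an adjusted p of 0.00381.

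Mthfd1, the cytosolic enzyme that joins formate to folate, had log2 levels of 1.78, 1.77, 1.35, 1.71, 1.55 and 1.73 in low protein livers, against 1.60, 1.25, 1.23, 1.08, 1.26 and 1.20 in control livers. Low protein rats 3 and 5 lay below control rat 1, and the other low protein livers were above every control. The change was 0.38 ± 0.10 (SE, 95% interval 0.16 to 0.60, adjusted p = 0.0448). It passed narrowly: leaving out any rat other than control rat 1 and low protein rat 3 gave adjusted p of 0.0625 to 0.0955. The call was also lost under quantile normalization (adjusted p = 0.0555) and without the filter on dim probes (adjusted p = 0.127), where the change itself stays 0.38.

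Of the formyl-folate dehydrogenases, mitochondrial Aldh1l2 had log2 levels of 0.24, 0.40, 0.33, -0.11, 0.24 and 0.19 in low protein livers, against -0.08, -0.18, 0.05, 0.01, 0.35 and 0.26 in control livers. The difference was 0.15 ± 0.11 (SE, 95% interval -0.09 to 0.39, adjusted p = 0.481). The lowest low protein liver, rat 4, lay below 5 of the controls. Cytosolic Aldh1l1 had log2 levels of 3.39, 3.02, 2.59, 2.72, 2.47 and 2.77 in low protein livers, against 3.14, 2.78, 2.82, 2.54, 2.61 and 2.62 in control livers. Its difference was 0.08 ± 0.15 (SE, 95% interval -0.26 to 0.41, adjusted p = 0.832), and the lowest of all 12 livers was a low protein one. Under quantile normalization its sign turned (-0.0018). These intervals leave room for a change of up to 0.39 and 0.41, so equality of the diets is not shown.

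Whether diet moved mitochondrial and cytosolic enzymes unequally was tested on the difference of their log2 values within each rat. With 4 mitochondrial and 2 cytosolic enzymes measured, 8 pairs were compared by an exact two-sided permutation test, with p adjusted over the 8. It covered all 924 regroupings of the rats, and its smallest possible p is 0.00216. Of these pairs, only Aldh1l2 with Aldh1l1 and Mthfd1l with Mthfd1 were planned. The others were added after the data were seen, so their p-values describe differences already known. Mthfd2 rose more than Mthfd1 by 3.43 ± 0.40 and more than Aldh1l1 by 3.73 ± 0.44 (SE, n = 6 per diet, exact p = 0.00216 and adjusted p = 0.00433 each). No conclusion is drawn from the tests of the 2 pairs with Mthfd1l, whose control spots were not well above background. Their p-values did enter the adjustment over the 8. On the measured values its rise exceeded that of its cytosolic counterpart Mthfd1 by 1.69 and that of Aldh1l1 by 1.99. The difference from Mthfd1 was -0.09 (exact p = 0.457) after normexp and 0.28 (exact p = 0.0541) in the deposited values, where background is not subtracted.

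The remaining pairs differed little or did not pass. Shmt2 rose more than Aldh1l1 by 0.41 ± 0.11 (95% interval 0.17 to 0.66, exact p = 0.0108, adjusted p = 0.0173). Shmt2 and Mthfd1 differed by 0.11 ± 0.09 (-0.09 to 0.32, exact p = 0.253), and Aldh1l2 and Mthfd1 by -0.23 ± 0.17 (-0.59 to 0.14, exact p = 0.195). The formyl-folate dehydrogenases of mitochondrion and cytosol, Aldh1l2 and Aldh1l1, differed by 0.07 ± 0.21 (-0.39 to 0.54, exact p = 0.71). Of the 6 pairs measured in both diets, both pairs with Mthfd2 and that of Shmt2 with Aldh1l1 passed, and the other 3 did not. The pairs that passed were all added after the data were seen.

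**Figure D2:**
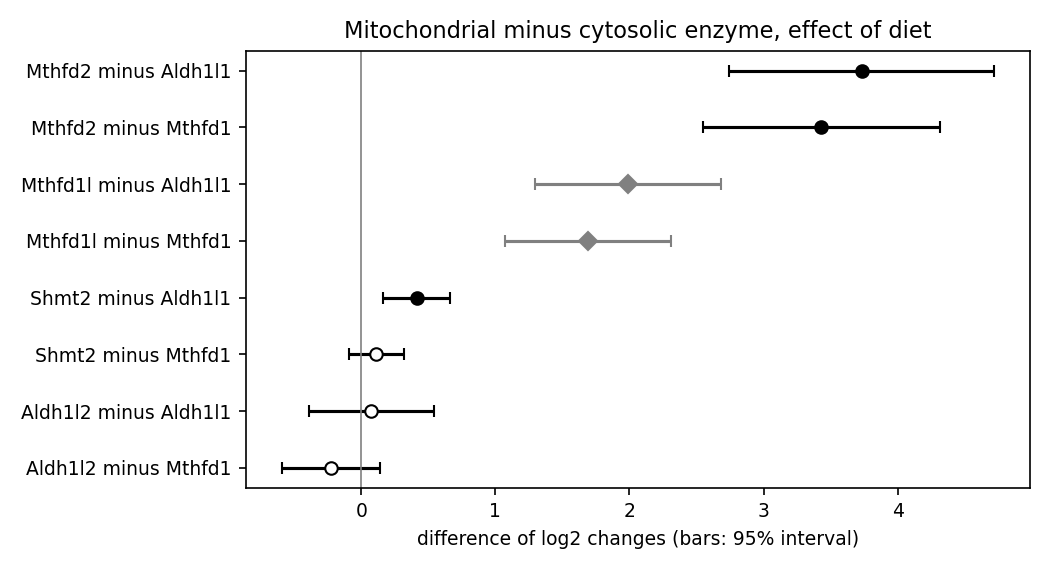
Difference between the log2 change of a mitochondrial and that of a cytosolic enzyme (x axis), low protein minus control, with 95% intervals, for 8 pairs over 6 rats per diet. Filled black points passed at an adjusted p under 0.05 over the 8 pairs, and grey diamonds are the Mthfd1l pairs, whose control spots were not well above background. Both Mthfd2 pairs lie above 3 and the 3 open points lie across 0.

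Of 27 other folate pathway genes, 24 were measured. Of these 5 rose, 2 fell and 17 did not pass, where 3.48% of all genes were higher and 6.53% changed either way. These genes too were listed with earlier results of these arrays known, so the counts are not independent evidence beside those shares. The median change was 0.003, against -0.03 over all genes. All 3 enzymes that make serine, the substrate of Shmt2, were among those that rose. The 4 measured genes of folate uptake and retention and both mitochondrial carriers did not pass.

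**Figure D3:**
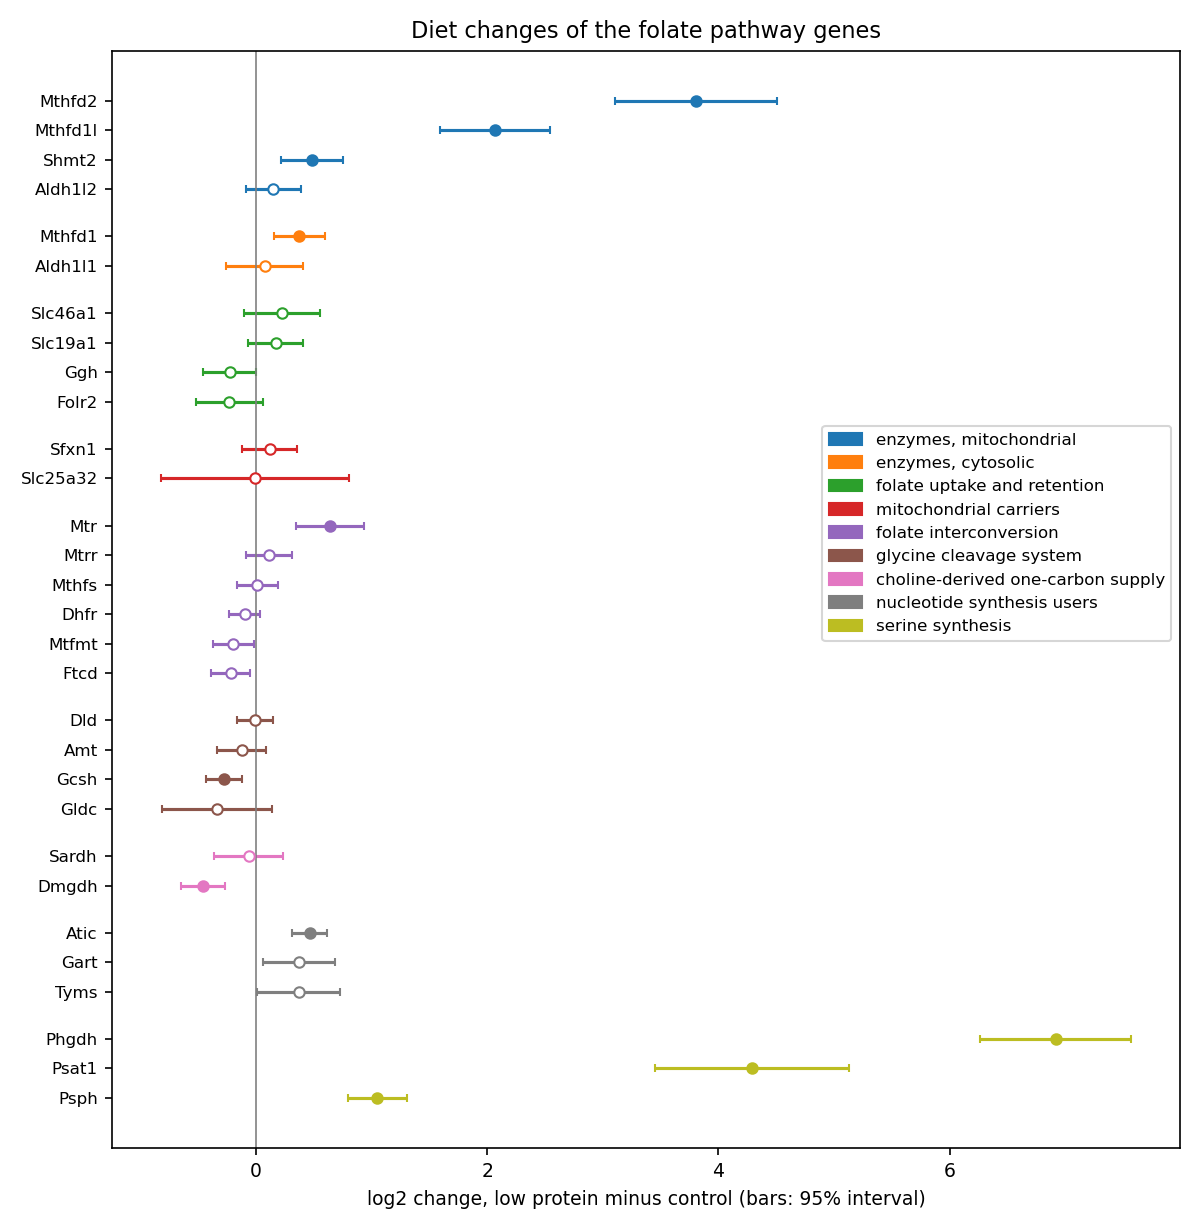
Log2 change, low protein minus control (x axis), with 95% intervals for 6 member genes and 24 other folate pathway genes, coloured by group and over 6 rats per diet. Filled points passed at an adjusted p under 0.05. Phgdh, Psat1, Mthfd2 and Mthfd1l stand far to the right of the rest. The control spots of Mthfd1l were not well above background, so the place of its point is uncertain.

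Psat1, the transaminase of serine synthesis, had log2 levels of 2.40, 2.66, 2.55, 2.23, 2.40 and 2.15 in low protein livers, against -2.96, -2.20, -2.66, -2.12, -0.11 and -1.34 in control livers. As for Mthfd2, control rat 5 was the highest control. Its change was 4.29 ± 0.39 (SE, adjusted p = 7.88e-05), beside 6.92 ± 0.30 for Phgdh, which starts the pathway (adjusted p = 1.4e-07), and 1.05 ± 0.12 for Psph, which ends it (adjusted p = 0.000384).

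Among the users of folate-bound carbon, Atic, which adds the last formyl group of the purine ring, had log2 levels of 1.06, 1.18, 1.25, 1.18, 1.21 and 1.36 in low protein livers, against 0.64, 0.83, 0.72, 0.70, 0.87 and 0.67 in control livers. The groups did not overlap, and the change was 0.47 ± 0.07 (SE, adjusted p = 0.00255). Gart, another purine enzyme, and Tyms, thymidylate synthase, differed by 0.37 each but did not pass (adjusted p = 0.144 and 0.219). Mtr, methionine synthase, rose by 0.64 ± 0.13 (adjusted p = 0.0156), with -4.19 to -3.59 in low protein and -5.01 to -4.26 in control livers. The Mtr probe is dim, and its rise was 0.25 after normexp and 0.41 in the deposited values, still called.

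Falls were seen in other suppliers of one-carbon units. Dmgdh, which oxidises the choline product dimethylglycine in mitochondria, had log2 levels of 0.03, 0.17, 0.11, -0.02, -0.08 and 0.12 in low protein livers, against 0.34, 0.32, 0.69, 0.42, 0.60 and 0.71 in control livers. All low protein values lay below all control values (change -0.46 ± 0.09, SE, adjusted p = 0.00998). Gcsh, the carrier protein of the glycine cleavage system, ran from 3.96 to 4.32 in low protein and from 4.39 to 4.53 in control livers (change -0.28 ± 0.07, adjusted p = 0.0397), and a second Gcsh probe also gave -0.28. Gcsh lost its call without any rat other than low protein rats 1 and 6 (adjusted p 0.0539 to 0.0913). Without scaling between arrays, which moves the median of all genes to 0.11, neither passed: Dmgdh was -0.33 (adjusted p = 0.187) and Gcsh -0.14 (adjusted p = 0.574). The other glycine cleavage genes Gldc (-0.33), Amt (-0.12) and Dld (-0.01) and the sarcosine enzyme Sardh (-0.06) did not pass.

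Of the groups with no call, the smallest p-values for uptake and retention were those of Ggh, which trims folate polyglutamates (-0.23 ± 0.10, adjusted p = 0.23), and the folate receptor Folr2 (-0.23 ± 0.13, adjusted p = 0.356). The mitochondrial serine carrier Sfxn1 differed by 0.12 ± 0.11 (adjusted p = 0.587). Slc25a32, the mitochondrial folate carrier, differed by -0.01 with a wide interval of -0.82 to 0.81, in which a change of either sign would go unseen.

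Markers of dividing cells, in which Mthfd2 is known to be high, were also measured. The 4 measured of 5 (Mki67, Ccnb1, Cdk1 and Pcna) changed by -0.32 to 0.02 with 0 calls, and their summed linear level was 0.799 to 1.09 in low protein and 0.783 to 1.06 in control livers. Over all cell type lists 32 of 34 markers were measured, of which 0 rose and 3 fell: the hepatocyte genes Apoa1 (-0.84) and Cps1 (-0.68) and the leukocyte gene Ptprc (-0.43). Over all genes 6.53% changed either way. The summed level of the 3 measured leukocyte markers was 0.363 to 0.494 in low protein and 0.390 to 0.644 in control livers. All 5 Kupffer cell and macrophage markers had lower means in low protein livers (-0.72 to -0.24), with 0 calls. Their summed level was 12.4 to 18.4 in low protein and 12.3 to 25.8 in control livers. The part of these cells in the folate genes' changes was not tested.

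How the members vary among rats of the same diet was examined next. Over 15 pairs of the 6 measured members, correlations of deviations from the diet mean were computed across 12 rats. Mthfd1 and Aldh1l1 varied together (Pearson r = 0.77, permutation p = 0.00299, adjusted p = 0.0448, and Spearman rho = 0.84, adjusted p = 0.0213). Without the 2 rats farthest from the median r was 0.67, and within slides it was 0.82 (adjusted p = 0.0399). Shmt2 with Aldh1l1 (r = 0.73, adjusted p = 0.0869) and Shmt2 with Mthfd1 (r = 0.69, adjusted p = 0.111) did not pass. Their r was close to that of Mthfd1 with Aldh1l1, so the likeness is not shown to be particular to the cytosolic enzymes. For Mthfd2 and Shmt2, which act one after the other, r was -0.16 (adjusted p = 0.769). Its sign was not stable: it was 0.41 without the 2 rats farthest from the median, 0.47 among low protein rats and -0.41 among control rats.

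**Figure D4:**
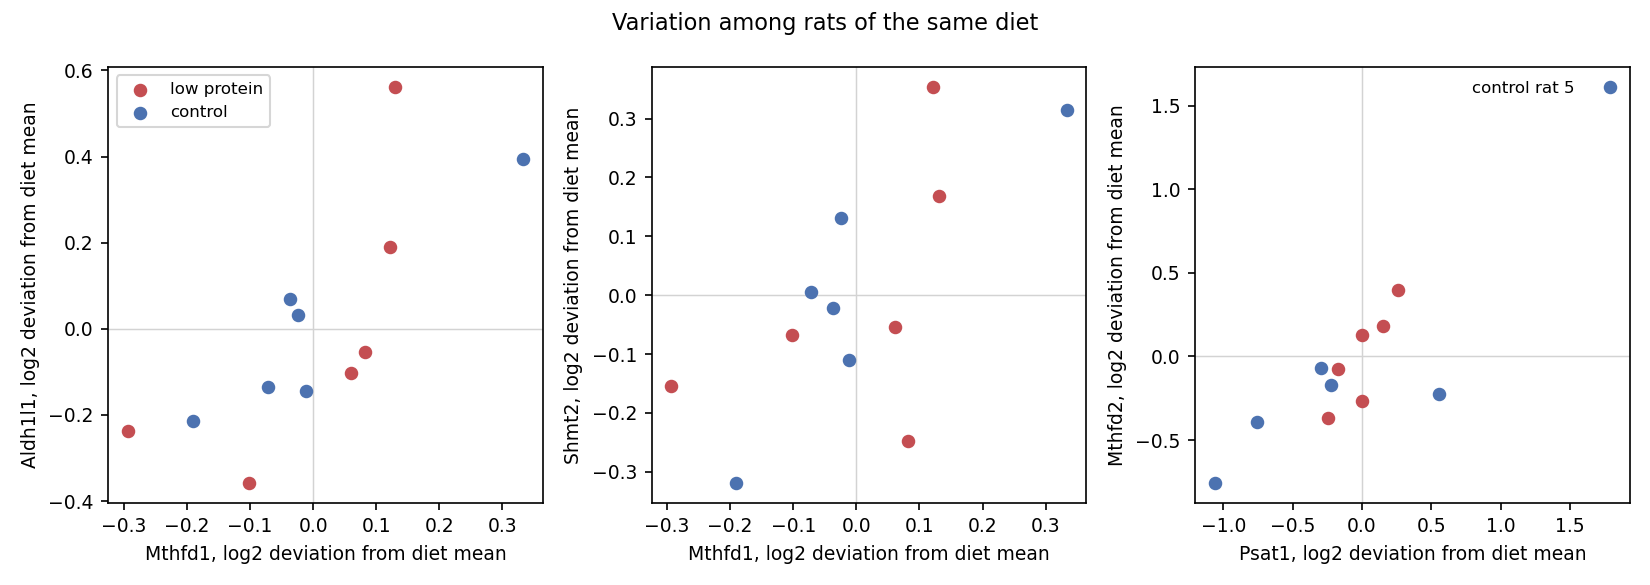
Deviation of each rat's log2 level from its diet mean for Mthfd1 with Aldh1l1, Mthfd1 with Shmt2, and Psat1 with Mthfd2 (6 low protein and 6 control rats). The r is 0.77, 0.69 and 0.90, and in the last panel control rat 5 lies far from the other points.

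Of 11197 genes with a symbol, those whose deviations were most like those of Mthfd2 over the 12 rats were Xrcc4 (r = 0.90), Psat1 (0.90), Prim1 (0.88), Iars1 (0.88) and Eprs1 (0.88). Picked as the highest of so many correlations over 12 rats, they have a high r by selection, and it was not tested. Control rat 5 weighs on this likeness, and without it r was 0.27 for Xrcc4, 0.63 for Psat1, 0.66 for Prim1, 0.89 for Iars1 and 0.73 for Eprs1. Xrcc4, a DNA repair factor, and Prim1, a DNA primase subunit, did not pass the diet test, with changes of -0.05 and -0.002. Iars1 and Eprs1 charge tRNAs with isoleucine and with glutamate and proline. Iars1 ran from 1.35 to 2.08 in low protein and from 0.38 to 1.17 in control livers (change 1.10, adjusted p = 0.00197), and Eprs1 rose by 0.62 (adjusted p = 0.0021). Among the members, Aldh1l2 had r = 0.58 with Mthfd2 (rank 341) and Mthfd1l r = 0.21 (rank 2681). By Spearman's rho they had 0.45 and 0.52, so their order depends on the measure. The control values of Mthfd1l were also not well above background. Its r with Mthfd2 was 0.73 among low protein and 0.05 among control rats, against 0.49 and 0.66 for Aldh1l2. No conclusion is drawn from the rank of Mthfd1l.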

How the data were processed

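Liver RNA of 12 rats was measured on single-colour arrays, and groups and rat numbers come from the labels. The authors' scans went through Agilent Feature Extraction 12.0.3.1 with background subtraction, per the file headers. The deposited files hold intensity on a linear scale, and the deposited value table holds the median intensity of each spot on each array. No column lacked a sample. Depth is that of arrays, so their number limits the precision (median SE 0.126).

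Deposited processed signals were divided by their array's 75th percentile (942 to 1317 units) and taken to log2, with 453 to 739 outlier spots per array left out and spots of a probe averaged. Probes were kept where well above background on at least 5 of the 6 arrays of a diet, and the brightest per gene was used. Genes were named through RefSeq accessions of the GRCr8 annotation (21215 of 45598 probes, 46.5%, matched). The headers name an older build, so array coordinates are not given, and promoter windows are those of RefSeq.

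Diets were compared with limma 3.58.1 in R 4.3.3, two-sided, with Benjamini-Hochberg adjustment over all genes, or over all probes for probe values, which found 761 genes higher and 668 lower and was tested on simulated data. Without scaling between arrays 76.2% of calls were higher, against 53.3%. Pairs of enzymes were compared by exact permutation and within-diet correlations by 1e+05 permutations. Figures used Python 3.11.15, pandas 2.3.3 and matplotlib 3.10.9, and tables used data.table (version 1.17.8).

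The genes named were the members, other pathway genes that passed (or, per group without one, the 2 with the smallest p), the 5 most like Mthfd2 and markers that passed. A few further pathway genes were named after their values were seen. The members and lists were chosen with earlier results of these data known. Alternatives covered background correction, scaling, the filter, outlier spots, probes per gene, slide, rat number and each rat left out. The further pairs, Mthfd2l without the filter, the correlations without control rat 5 and the motifs CCAAT and TGACG were added after seeing the data. The files used hold no mean signal, so normexp (offset 50) was run on the median signal. Nothing in the labels pairs rats across diets. Correlations of same-numbered rats' deviations were 0.03 to 0.26.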

Additional observations from a re-analysis of the deposited data

Results flagged for a closer look

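For each member and pathway gene the rats of a diet were checked for a single liver that stood apart from the other 5, by the gap to its nearest neighbour as a share of the group's range. Chance alone marks about 1 in 20 groups, and 3 of 64 were marked. In control rat 5, Mthfd2 was -1.58 on the log2 scale, with the nearest control at -3.26, and without this rat the change was 4.13. In control rat 1, Mthfd1 was 1.60, with the nearest control at 1.26, and this rat also had the highest control level of Aldh1l1 and Shmt2. In control rat 4, Mtfmt, which formylates the mitochondrial initiator tRNA, was -2.36, with the nearest control at -2.66, and its diet difference did not pass (-0.19, adjusted p = 0.187).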

How the results depend on the processing

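With rat number as a replicate block, 1410 genes changed (678 higher, 732 lower), Mthfd1 missed the threshold at 0.38 (adjusted p = 0.0552) and 1 other pathway gene fell, Gcsh having missed the threshold (adjusted p = 0.0834). The labels do not pair the rats: 5 of 6 same-numbered pairs correlated over 0.1 in their deviations, and 4 of 12 rats correlated best with their own number. After normexp, Mthfd1l was 0.26 (adjusted p = 0.122) and its difference from Mthfd1 reversed to -0.094; in the deposited values that difference was 0.28. Under quantile normalization Mthfd1 was 0.34 (adjusted p = 0.0555) and Aldh1l1 -0.0018. Without scaling 884 genes changed and 0 other pathway genes fell. Without the filter 618 genes changed, Mthfd1 was 0.38 (adjusted p = 0.127), Shmt2 0.49 (adjusted p = 0.0965), and 1 pathway gene fell; more genes are then tested. With the filter on all 12 arrays Mthfd1l dropped out.

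Slide 1 alone, with fewer rats, gave 164 changed genes, Mthfd1 0.33, Shmt2 0.52, Aldh1l2 minus Aldh1l1 -0.059, and 3 pathway genes higher and 0 lower. Slide 2 alone gave 12 changed genes, Aldh1l1 -0.039, Mthfd1 0.47, Mthfd1l 1.54, Shmt2 0.43, Mthfd1l minus Mthfd1 1.07, and 2 higher and 0 lower, with Mthfd2 at 3.81 the only member called there.

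With each rat left out in turn, changed genes numbered 854 (without control rat 3) to 1310. Changes ran from 3.66 to 4.13 for Mthfd2, 1.96 to 2.17 for Mthfd1l, 0.42 to 0.55 for Shmt2, 0.34 to 0.44 for Mthfd1, 0.10 to 0.22 for Aldh1l2 and -0.036 to 0.15 for Aldh1l1. The difference of Mthfd1l and Mthfd1 was 1.54 to 1.81 and that of Aldh1l2 and Aldh1l1 -0.034 to 0.18. Of the other pathway genes 5 to 6 rose and 1 to 2 fell. Mthfd2 kept its call under all 13 alternatives (3.23 to 3.94) and with each rat left out. Where a call was lost, the cause was not tested unless stated. Signals near background limit Mthfd1l, Mthfd2l and the dimmer Mthfd2 probe.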
